A study of Mus musculus with 4 samples.

Results

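A set of 10 adipocyte genes were described in ribosome footprints of mouse dorsal root ganglia, the clusters of sensory neuron cell bodies beside the spinal cord. The genes were Adipoq, Lep, Cfd, Plin1, Plin4, Cidec, Lpl, Fabp4, Pparg and Car3, taken by their symbols from a table of 48431 genes. Each symbol had 1 row, and all 10 are expressed in fat cells, though several are also known from other cells. The 4 libraries formed 1 group, replicates 1 to 4, from female wild-type (WT) mice of the SW strain. All of these mice had received paclitaxel, a chemotherapy drug that stabilises microtubules and causes neuropathy, in 4 intraperitoneal injections of 4 mg/kg on alternate days. Untreated mice and RNA libraries were not analysed here. No value is therefore an effect of the drug, and none is a translational efficiency.

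White adipocytes store triglyceride in a single large lipid droplet and release fatty acids and hormones. The nuclear receptor PPAR gamma switches on most genes of the mature cell, among them those of droplet coat proteins, fatty acid carriers and secreted adipokines. In and around peripheral nerves, adipocytes are found in the epineurium, the outer connective tissue sheath. In a bulk tissue, fewer cells of a type and less RNA per cell cannot be told apart, and neither can fewer transcripts and fewer ribosomes on each.

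A gene was called detected at 1 CPM (reads scaled to a library total of 1000000 assigned reads) or more in all 4 libraries, and 14726 genes were. The libraries held 5731508, 9255060, 14633420 and 10424949 assigned reads in replicates 1 to 4. All 7 neuron markers and all 5 satellite glia markers were detected, and Tubb3, a neuronal tubulin, averaged 2939 ± 81.0 CPM (SD, n = 4). Detection alone does not tell tissues apart here, since all 61 markers of 9 cell types were detected. The mitochondrial ribosomal RNA mt-Rnr2 was listed at 0 in replicate 3, against 23520, 61455 and 52082 CPM in replicates 1, 2 and 4. Rescaling the libraries after removal of the 20 highest genes and all mitochondrial ones moved the median gene by up to 0.21 on the log2 scale and left the same 3 adipocyte genes past the variance test described with the spread between libraries.

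Promoters are shown as a description of sequence, and a link between them and the levels in the libraries was not tested. RefSeq promoters on GRCm38.p6, from 250 bases before the transcript start to 50 after it, were matched for 7 of the 10 genes with 10 starts. Of the 4 printed, Adipoq and Lep belong to the hormones, Plin4 to the droplet coat, and Cfd is the one gene with both a promoter in the table and a called variance. Capitals mark letters of any of 3 motifs searched on both strands: CCAAT (the CCAAT box), TATAA (the TATA box) and TTGCGCAA (the palindrome bound by C/EBP factors).
Adipoq, chr16:23146286-23146585, plus strand: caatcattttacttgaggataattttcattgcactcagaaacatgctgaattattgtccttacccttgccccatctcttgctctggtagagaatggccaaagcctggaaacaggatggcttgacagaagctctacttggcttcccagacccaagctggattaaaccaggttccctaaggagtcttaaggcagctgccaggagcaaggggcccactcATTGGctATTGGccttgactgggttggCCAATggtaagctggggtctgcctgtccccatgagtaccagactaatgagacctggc
Lep, chr6:29059971-29060270, plus strand: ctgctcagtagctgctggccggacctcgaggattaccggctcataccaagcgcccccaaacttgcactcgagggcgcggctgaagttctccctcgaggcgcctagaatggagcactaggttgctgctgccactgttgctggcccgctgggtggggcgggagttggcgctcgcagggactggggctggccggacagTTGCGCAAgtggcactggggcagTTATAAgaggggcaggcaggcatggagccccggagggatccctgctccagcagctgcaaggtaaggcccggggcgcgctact
Plin4, chr17:56109733-56110032, minus strand: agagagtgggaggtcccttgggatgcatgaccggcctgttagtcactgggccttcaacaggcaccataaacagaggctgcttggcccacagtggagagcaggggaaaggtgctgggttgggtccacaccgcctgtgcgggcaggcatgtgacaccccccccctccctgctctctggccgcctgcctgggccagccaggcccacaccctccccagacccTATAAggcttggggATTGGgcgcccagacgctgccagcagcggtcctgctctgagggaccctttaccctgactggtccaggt
Cfd, chr10:79890603-79890902, plus strand: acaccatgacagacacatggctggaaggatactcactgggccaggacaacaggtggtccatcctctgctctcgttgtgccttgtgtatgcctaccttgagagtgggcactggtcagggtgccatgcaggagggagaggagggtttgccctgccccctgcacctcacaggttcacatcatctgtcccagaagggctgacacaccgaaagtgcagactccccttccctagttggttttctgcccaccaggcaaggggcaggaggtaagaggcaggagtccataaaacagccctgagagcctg
Among the promoters of the 10 genes the palindrome was found in Lep only, at -55 to -48 from the start, and it stood in 0.183% of the 32851 promoters searched. The Lep promoter also held TATAA on both strands, in matches that overlap between -32 and -27. CCAAT stood in the Adipoq promoter at 3 places on the 2 strands, and in the Plin4 promoter at -18 to -14 on the opposite strand, with TATAA at -32 to -28. These short motifs are common, since CCAAT was found in 37.4% and TATAA in 24.9% of all promoters. A PPAR direct repeat, which is AGGTCA repeated after 1 base of any kind, was found in 0 of the 10 promoters and in 0.0396% of all. In all, 4 of the 10 promoters held CCAAT, in Adipoq, Plin4 and 2 starts of Pparg, and 3 held TATAA, in Lep, Plin4 and 1 start of Pparg. The Cfd, Plin1 and Cidec promoters held none of the 4 motifs, and a match or its lack describes only the letters of these windows.

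Of the secreted proteins, Cfd had most footprints and Lep fewest. Adiponectin, the hormone that raises insulin sensitivity, is encoded by Adipoq (ENSMUSG00000022878.5, chr16:23146536-23158028, plus strand, GRCm38, as are all gene coordinates given). Adipoq had 70.5, 34.9, 56.4 and 26.7 CPM in replicates 1 to 4, or 47.12 ± 20.01 CPM (mean ± SD, n = 4). Replicates 1 and 3 were both above replicates 2 and 4. Adipsin, or complement factor D, is the serine protease that cleaves factor B in the alternative complement pathway and is encoded by Cfd (ENSMUSG00000061780.5, chr10:79890853-79892655, plus strand). Cfd had 193, 73.7, 183 and 118 CPM in the same order (142 ± 56.4 CPM), and replicate 2 was again low. Per kilobase of coding length, Cfd stood above Adipoq by 1.51 ± 0.44 on the log2 scale, in all 4 libraries. All log2 differences per kilobase are of log2(CPM per kb + 1), which understates those of genes with low levels, such as Lep.

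Leptin, the satiety hormone whose secretion follows fat mass, is encoded by Lep (ENSMUSG00000059201.12, chr6:29060220-29073877, plus strand). Lep had 2.27, 0.864, 1.23 and 0.480 CPM, which were 13, 8, 18 and 5 reads. It reached 1 CPM in replicates 1 and 3 and was the one adipocyte gene not called detected. The 95% Wilson intervals were 1.33 to 3.88 CPM in replicate 1 and 0.205 to 1.12 CPM in replicate 4, without overlap. These are the highest and lowest libraries, picked after the values were known. Over all 4 libraries Lep did not pass the variance test described with the spread between libraries (limma, unadjusted p = 0.17). The intervals of replicates 2 and 3, 0.438 to 1.71 and 0.778 to 1.94 CPM, overlap. Per kilobase, Lep stood below Adipoq by a log2 ratio of -4.25 ± 0.17, in all 4 libraries.

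The droplet proteins were led per kilobase by Cidec and Plin1. Perilipin 1 coats the adipocyte droplet and holds back lipolysis until hormones signal, and its gene Plin1 (ENSMUSG00000030546.14, chr7:79720218-79732903, minus strand) had 50.2, 20.3, 40.5 and 25.7 CPM (34.2 ± 13.7). Cidec, whose protein fuses small droplets into a large one (ENSMUSG00000030278.11, chr6:113424634-113435760, minus strand), had 22.9, 13.1, 29.7 and 11.8 CPM (19.3 ± 8.47). Its highest library was replicate 3 and its lowest replicate 4, while Plin1 was highest in replicate 1 and lowest in replicate 2. Plin1 stood 2.26 ± 0.18 log2 units above Plin4 per kilobase in all 4 libraries, and its log2 ratio to Plin2, the droplet coat protein of most tissues, was -1.61 ± 0.42. Cidec and its paralog Cidea, known from brown fat, did not differ beyond their spread, with a log2 ratio of -0.28 ± 0.50 that was negative in 3 of 4 libraries.

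Plin4, a perilipin that coats nascent droplets (ENSMUSG00000002831.13, chr17:56100591-56109803, minus strand), had 23.9, 9.72, 16.3 and 12.6 CPM (15.6 ± 6.14). Its coding sequence of 4209 nt carries an array of near-identical units, shown because footprints are short and reads inside such units match several places. In all, 34.3% of its 30-nt words occurred more than once within it, between coding bases 553 and 2795, at distances that were whole multiples of 99 nt, or 33 codons. Capitals mark bases that differ from the unit at coding bases 709 to 807.
Plin4, coding bases 709-807: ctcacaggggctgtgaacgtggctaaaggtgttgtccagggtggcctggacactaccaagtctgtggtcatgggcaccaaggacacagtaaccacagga
Plin4, coding bases 1006-1104: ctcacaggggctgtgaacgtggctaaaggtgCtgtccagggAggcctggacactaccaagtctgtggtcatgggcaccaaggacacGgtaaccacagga
Plin4, coding bases 1303-1401: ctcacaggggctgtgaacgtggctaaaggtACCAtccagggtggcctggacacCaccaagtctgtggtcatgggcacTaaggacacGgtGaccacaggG
These units differ from that at 709 to 807 by 3 bases at 1006 to 1104 and by 9 at 1303 to 1401. How reads with several matches were counted is not given in the sources used here, so the level of Plin4 is uncertain on that account. The other 9 coding sequences held no repeated 30-nt word, and no 30-nt word of any of the 10 was found in another annotated gene's transcripts.

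Both genes of fatty acid entry had higher levels than the droplet genes, in CPM and per kilobase. Lipoprotein lipase, which frees fatty acids from circulating triglyceride, is encoded by Lpl (ENSMUSG00000015568.15, chr8:68880491-68907448, plus strand). Lpl had 136, 55.2, 117 and 74.9 CPM (95.7 ± 37.0). Fabp4, the cytoplasmic fatty acid carrier of adipocytes, which endothelial cells and macrophages also make (ENSMUSG00000062515.3, chr3:10204088-10208576, minus strand), had 145, 60.0, 172 and 95.9 CPM (118.2 ± 49.99). Both were lowest in replicate 2, and Fabp4 was highest in replicate 3. Per kilobase, Lpl stood 2.002 ± 0.242 log2 units above Lipe, the hormone-sensitive lipase, in all 4 libraries. Fabp4 stood 1.31 ± 0.64 above its paralog Fabp5, but only 15.7% of the 30-nt words of Fabp5 were unique to it, so that the value for Fabp5 is uncertain.

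Pparg, the gene of PPAR gamma (ENSMUSG00000000440.12, chr6:115360951-115490399, plus strand), had 11.5, 4.00, 8.27 and 5.28 CPM (7.26 ± 3.35). Its log2 ratio per kilobase to Cebpa, the factor that acts with it in fat cell differentiation, was -1.10 ± 0.14. Car3, the gene of cytosolic carbonic anhydrase III, an enzyme abundant in fat cells and in slow skeletal muscle (ENSMUSG00000027559.5, chr3:14863512-14872523, plus strand), had 479, 168, 367 and 202 CPM (304 ± 145). It had the highest level of the 10 and ranked 490 among all genes by mean CPM. Of the 8 gene pairs compared, 7 had the same sign in all 4 libraries. The 2-sided exact sign-flip permutation test cannot give p below 0.13 with 4 libraries, and these 7 had this p of 0.13, or 0.143 after Benjamini-Hochberg adjustment over the 8 pairs. Cidec over Cidea had p = 0.375 before and after adjustment in that exact test.

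**Figure D1:**
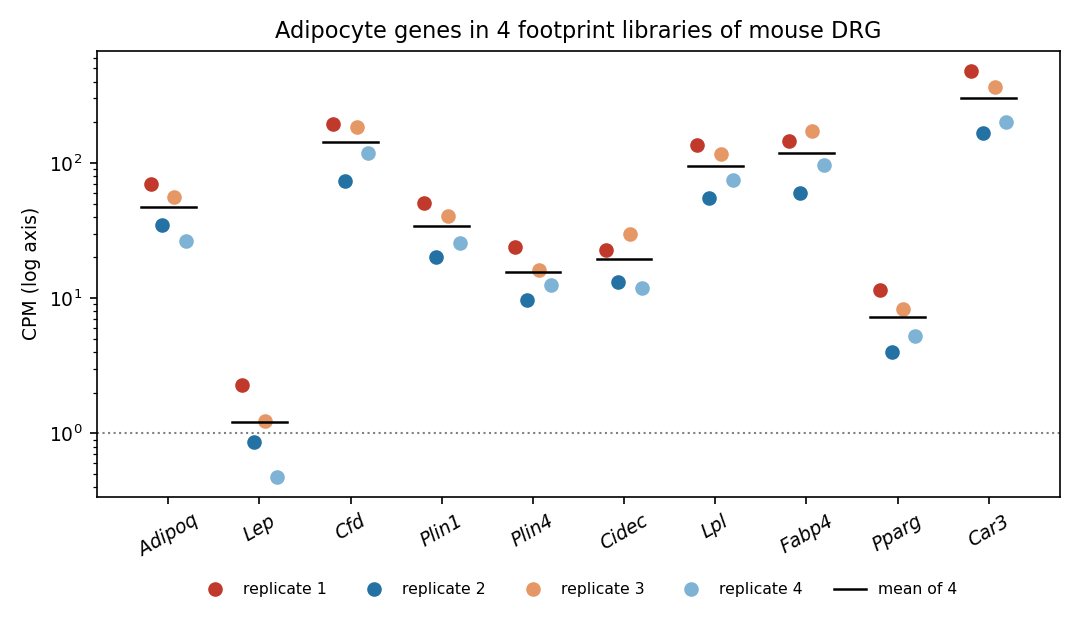
Levels of the 10 adipocyte genes in CPM on a log axis, with a point for each of the 4 libraries, a bar at their mean and a dotted line at 1 CPM. In every gene the points of replicates 1 and 3 lie above those of replicates 2 and 4, and Lep lies lowest, between 0.480 and 2.27 CPM.

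Per kilobase of coding length, which makes levels of different genes comparable, the 10 genes spanned a wide range. Car3 averaged 390 ± 186 and Fabp4 298 ± 126 CPM per kb, above 98.1% and 97.3% of detected genes. Cfd followed at 182.5 ± 72.6, Lpl at 67.3 ± 26.0 and Adipoq at 63.6 ± 27.0 CPM per kb. Cidec at 25.9 ± 11.3 and Plin1 at 22.1 ± 8.83 CPM per kb lay near the middle of all genes, with 64.8% and 60.6% of detected genes below them. At the bottom were Pparg at 4.80 ± 2.21, Plin4 at 3.71 ± 1.46 and Lep at 2.42 ± 1.53 CPM per kb. Of neighbours in this order, Lpl and Adipoq differed by 0.09 ± 0.34 and Cidec and Plin1 by 0.21 ± 0.33 on the log2 scale, within their spread and not with the same sign in all libraries. The other 7 neighbouring pairs kept their order in all 4 libraries. The differences ran between 0.27 ± 0.14 for Pparg over Plin4 and 1.99 ± 0.06 for Plin1 over Pparg. The place of Plin4 in this order is uncertain, since reads in its repeated units match several places.

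**Figure D2:**
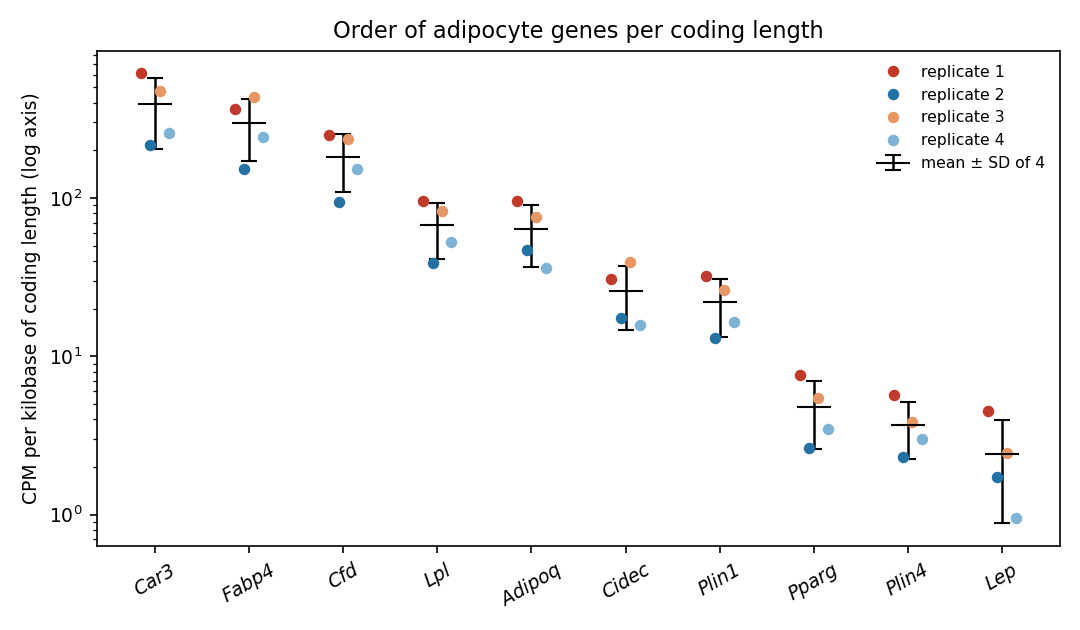
Levels of the 10 adipocyte genes in CPM per kilobase of coding length on a log axis, ordered by mean, with a point per library and bars for the mean ± SD of 4. Levels run between 390 for Car3 and 2.42 for Lep, with a gap between Plin1 at 22.1 and Pparg at 4.80.

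Set against the median detected gene of each library, 6 of the 10 genes lay above it and 2 below it in CPM, by limma's test with adjusted p under 0.05 over all genes tested. Among all 15728 genes, 42.9% lay above and 49.1% below, since most genes differ from the median, so these counts say little about adipocyte genes as such. Per kilobase, 7 lay above and 3 below, against 44.0% and 48.3% of the 14128 genes tested. Plin1 was above by 0.45 ± 0.50 log2 units per kilobase in 3 of 4 libraries (limma, adjusted p = 0.025), the smallest margin of the 10. Cidec was above by 0.65 ± 0.54 per kilobase in 4 of 4 libraries (limma, adjusted p = 0.005), but at -0.08 in CPM without length (limma, adjusted p = 0.68).

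All 10 genes shared 1 ordering of the libraries: replicates 1 and 3 were both above replicates 2 and 4. This ordering was seen after the values were known, and 32.8% of all detected genes had it too. The median detected gene also had it, at 4.37, 4.25, 4.43 and 4.26 log2(CPM + 1) in replicates 1 to 4, a range of 0.18. Replicate 1 was highest for 8 of the 10, and Fabp4 and Cidec were highest in replicate 3. Replicate 2 was lowest for 7 genes, and replicate 4 for Adipoq, Lep and Cidec. The summed level of the 10 genes was 1133, 439, 992 and 573 CPM in replicates 1 to 4. The highest library had 2.58 times the lowest. The SD as a share of the mean, the coefficient of variation, was 38.7% to 63.5% for the 10 genes with a median of 42.4%. Over all detected genes the median was 13.3%.

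Variance between libraries was tested with limma's F test against genes of the same level, adjusted over 15728 genes, where 242 genes, or 1.54%, passed. Cfd, Car3 and Fabp4 passed, 3 of the 10, all of which had met the filter of 1 CPM or more on average. Car3 varied with 29.4 times the variance of genes of its level (limma, adjusted p = 0.014). The ratio was 22.8 for Fabp4 (limma, adjusted p = 0.027) and 21.7 for Cfd (limma, adjusted p = 0.030). Lpl had a ratio of 16.7 (limma, adjusted p = 0.055) and Adipoq 15.4 (limma, adjusted p = 0.066), short of the threshold. At an unadjusted p under 0.05, 9 of the 10 genes passed in limma's test, against 6.61% of all genes tested, and Lep did not. The 3 calls did not hold whichever library was left out. Without replicate 2 or without replicate 3, 0 of the 10 passed, against 0.938% and 0.676% of all genes. In both cases 9 of the 10 had an unadjusted p under 0.05 in limma's test. The share of all genes at that unadjusted p was not computed for these fits, so this count has no background beside it. Fewer genes passed in all, 148 without replicate 2 and 106 without replicate 3. The ratios for Car3, Fabp4 and Cfd were 23.2, 9.56 and 8.07 without replicate 2. Without replicate 3 they were 39.1, 20.8 and 26.1, so the lost calls do not mean a smaller spread for Car3 and Cfd there. With a prior variance that was not robust, 0 passed too, against 0.0763% of all genes. With no filter on low values 8 of the 10 passed, all but Lep and Pparg, against 2.57% of all genes. Among genes averaging 5 CPM or more, which leaves out Lep, 5 of 9 passed, against 2.01%. Without replicate 2 the adjusted p in limma's test was 0.071 for Car3, 0.35 for Fabp4 and 0.45 for Cfd, and without replicate 3 it was 0.058, 0.15 and 0.11 for the same genes. Whether each replicate came from its own mouse is not in the labels, so that a p-value here refers to the spread of these 4 libraries alone, which may be technical.

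**Figure D3:**
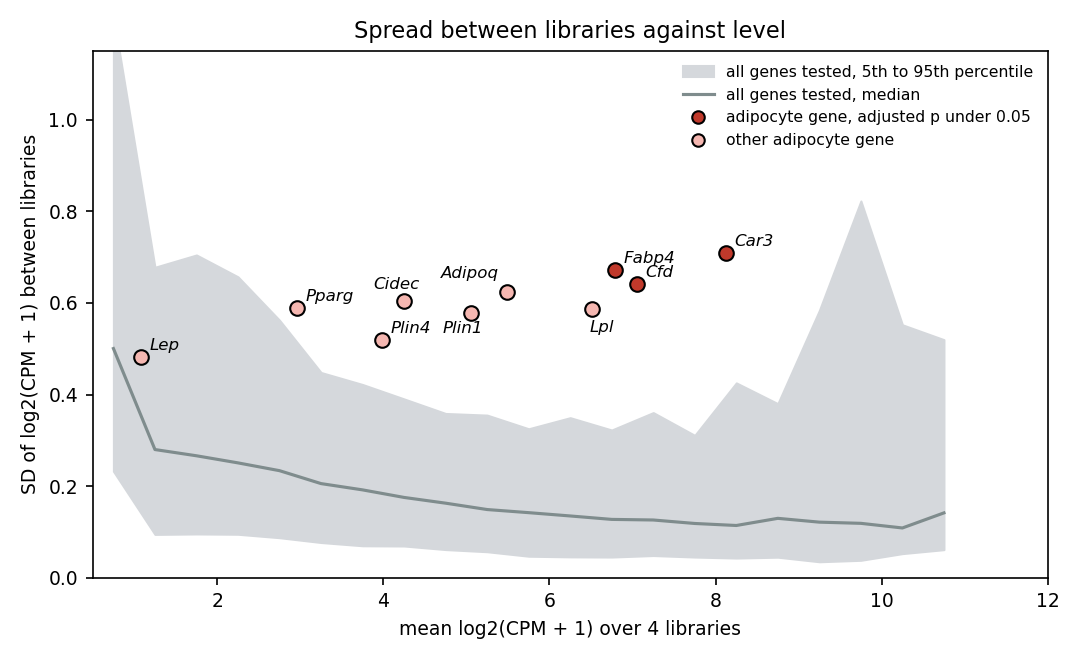
SD between the 4 libraries of log2(CPM + 1) against mean log2(CPM + 1), with all genes tested as a grey band (5th to 95th percentile) and line (median), and the 10 adipocyte genes as points, dark for those with adjusted p under 0.05. The adipocyte genes other than Lep lie above the band, with SDs between 0.52 for Plin4 and 0.71 for Car3.

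The mixture of the 10 genes changed less than their sum. Car3 took 42.2%, 38.1%, 37.0% and 35.3% of the summed CPM in replicates 1 to 4, and Lpl between 11.8% and 13.1%. Plin1 stayed between 4.09% and 4.62%. Fabp4 took 12.8% and 13.6% in replicates 1 and 2, and 17.4% and 16.7% in replicates 3 and 4. Adipoq had its lowest share, 4.65%, in replicate 4 and its highest, 7.94%, in replicate 2. The SD between libraries of the log2 ratio of a gene to Adipoq was 0.28 for Car3 to 0.49 for Fabp4, while the log2 level itself had SDs of 0.55 for Plin4 to 0.94 for Lep. Both are on log2 CPM with no pseudocount. On log2(CPM + 1), which shrinks the spread of low genes, the SDs ran between 0.48 for Lep and 0.71 for Car3. These shares are of CPM, so long genes count for more than short ones.

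Other genes of fat metabolism were grouped in 11 pathway lists of 78 genes, of which 71 were detected. In limma's variance test 4 of the 72 tested passed, or 5.56%, against 1.54% of all genes. At an unadjusted p under 0.05 in that test were 24 of the 72, against 6.61% of all genes tested. The same 6.61% applies to the unadjusted counts given for each list below. The 4 genes that passed after adjustment were Ucp1, Gpd1, Dgat2 and Fasn. Ucp1, the uncoupling protein of brown and beige fat, had 46.8, 10.5, 54.7 and 38.9 CPM, low in replicate 2 alone (limma, adjusted p = 0.0076). Gpd1, which makes the glycerol phosphate backbone of triglyceride, had 122, 38.5, 86.7 and 74.5 CPM (limma, adjusted p = 0.029). Dgat2, which adds the last fatty acid to triglyceride, had 65.1, 21.1, 31.9 and 21.8 CPM (limma, adjusted p = 0.042). Both were highest in replicate 1 and lowest in replicate 2. Fasn, the fatty acid synthase, had 2999, 1416, 1452 and 1554 CPM and stood apart in replicate 1 alone (limma, adjusted p = 0.048). None of these calls held whichever library was left out. Ucp1 lost its call without replicate 2, and Gpd1, Dgat2 and Fasn lost theirs without replicate 1, 2 or 3. Fewer genes passed in all in these settings, 205 without replicate 1, 148 without replicate 2 and 106 without replicate 3, against 242. With the prior that was not robust, 0 of the 4 passed, and Fasn also lost its call with a pseudocount of 0.1, after rescaling and after quantile normalisation.

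Among lipid droplet genes outside the 10, 9 of 10 were detected and 0 of 9 passed limma's variance test, with 2 at an unadjusted p under 0.05. The 3 highest were Bscl2, the seipin gene of droplet assembly, at 99.4 ± 9.26 CPM, Plin2 at 83.9 ± 12.1 CPM and Plin3 at 74.7 ± 9.88 CPM. The sum of the adipocyte genes had a coefficient of variation of 42.2%, against 9.73% for the sum of this list, which was 365, 303, 338 and 298 CPM. A sum is led by its highest genes, and over the single genes of this list the median was 19.0%, with 54.0% for Cidea. Cidea had 37.5, 13.2, 20.5 and 13.4 CPM, and Cideb, the liver member of that family, averaged 0.904 CPM and was not detected. Of 6 lipolysis genes, all detected, 0 passed limma's variance test and 3 had an unadjusted p under 0.05. Mgll, the monoglyceride lipase, averaged 114 ± 17.6 CPM, Pnpla2, the triglyceride lipase of the droplet, 92.2 ± 20.3 CPM and Lipe 51.1 ± 20.2 CPM. In triglyceride synthesis, Lpin1, a phosphatidate phosphatase, averaged 157 ± 5.20 CPM, Gpam, the acyltransferase that begins the pathway, 95.8 ± 8.22 CPM, and Mogat1, a monoacylglycerol acyltransferase, was undetected at 0.387 CPM.

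All 8 genes of fatty acid uptake and activation were detected, and 0 passed limma's variance test, with 2 at an unadjusted p under 0.05. The transporter Slc27a4 averaged 120 ± 3.38 CPM, Slc27a1 93.4 ± 12.4 CPM and the acyl-CoA synthetase Acsl1 89.5 ± 14.8 CPM. The 10 adipocyte genes summed to 784 ± 331 CPM, against 6256 ± 1587 CPM for the 10 genes of fatty acid synthesis, all detected. Of the 10 genes of fatty acid synthesis, 8 had an unadjusted p under 0.05 in limma's variance test. So had 4 of 7 genes of triglyceride synthesis, against 6.61% of all genes tested. Scd2, a desaturase, averaged 1993 ± 359 CPM and Acly, which supplies acetyl-CoA, 901 ± 175 CPM. Many of these are also known from myelinating Schwann cells, which make much lipid.

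Adipokines outside the 10 were detected in 4 of 6 cases, and 0 of the 4 passed limma's variance test, with 0 at an unadjusted p under 0.05. Nampt, an enzyme of NAD synthesis that is also secreted, averaged 51.4 ± 4.11 CPM, the retinol carrier Rbp4 35.2 ± 7.15 CPM and resistin, Retn, 5.62 ± 2.27 CPM. Apln, the apelin gene, was undetected at 0.501 CPM, and Itln1, omentin, was listed at 0 in all 4 libraries, where 3 reads in the deepest library would be 0.205 CPM. All 4 adipokine receptors were detected, and Adipor1, for adiponectin, averaged 95.6 ± 11.2 CPM. Lep averaged 1.21 ± 0.769 CPM, against 70.3 ± 9.06 CPM for Lepr, the gene of its receptor. Lepr has the longer coding sequence, and per kilobase Lep averaged 2.42 ± 1.53 and Lepr 20.2 ± 2.60 CPM. Adipor2 averaged 60.4 ± 11.9 CPM, and 0 of the 4 receptors passed limma's variance test, with 0 at an unadjusted p under 0.05.

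The 8 adipogenic transcription factors were all detected, and 0 passed limma's variance test, with 0 at an unadjusted p under 0.05. Ebf1 averaged 95.1 ± 8.85 CPM, Cebpd 21.7 ± 1.36 CPM, Ebf2 21.1 ± 3.16 CPM and Cebpa 12.02 ± 3.719 CPM. Of 7 thermogenic genes 6 were detected, 3 of which had an unadjusted p under 0.05 in limma's variance test, and besides Ucp1 the highest were the muscle and brown fat cytochrome oxidase subunits Cox8b at 20.1 ± 10.5 CPM and Cox7a1 at 16.5 ± 5.75 CPM. Elovl3, an elongase of cold-exposed brown fat, was undetected at 0.129 CPM. Of 7 genes of insulin and catecholamine response, 5 were detected and 0 of the 6 tested passed limma's variance test, with 1 at an unadjusted p under 0.05. Insr, the insulin receptor, averaged 49.8 ± 5.50 CPM, its substrate Irs1 25.6 ± 3.44 CPM and the adenosine receptor Adora1 20.8 ± 4.31 CPM. Adrb3, the beta-adrenergic receptor of fat, at 1.88 CPM and the activin-type receptor Acvr1c at 0.604 CPM were undetected. In the alternative complement pathway, where Cfd acts, C3 averaged 173 ± 53.0 CPM and Cfb, whose product Cfd cleaves, 21.2 ± 3.05 CPM, a value that is uncertain since only 2.61% of its 30-nt words were unique to it, and 0 of 4 genes passed limma's variance test, with 1 at an unadjusted p under 0.05.

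Marker lists of 9 other cell types held 61 genes, all detected, and no defining marker was at 0. The skeletal muscle list summed to 7938, 1975, 4023 and 2413 CPM in replicates 1 to 4, with the same order of libraries as the sum of the adipocyte genes. Several other lists had this order too, such as lipolysis, triglyceride synthesis and adipokine receptors. All 10 muscle genes had replicates 1 and 3 above replicates 2 and 4, against 32.8% of all detected genes. In limma's variance test 9 of the 10 passed, all but the slow myosin Myh7, against 1.54% of all genes. Without replicate 1, 4 of the 10 passed, against 1.31% of all genes. Without replicate 2 and without replicate 3, 8 passed each time, against 0.938% and 0.676%, and without replicate 4, 9 did, against 1.21%. With the prior that was not robust 0 of the 10 passed, against 0.0763%. Ttn, the giant sarcomere protein titin, averaged 1136 ± 790 CPM and Acta1, skeletal actin, 835 ± 519 CPM. The log2 ratio of the summed adipocyte genes to the summed muscle genes was -2.81, -2.17, -2.02 and -2.07, so replicate 1 held more muscle relative to adipocyte signal than the other libraries. Car3 and Lpl are known from muscle as well as from fat, and the part of muscle in their spread was not tested.

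The other 8 marker lists of 51 genes had 0 genes past limma's variance test. At an unadjusted p under 0.05 in that test were 12 of the 51, against 6.61% of all genes tested. Endothelial markers, all 8 detected, summed to 461, 339, 366 and 333 CPM, with Vwf at 124 ± 29.8 and Cdh5 at 121 ± 14.9 CPM. Macrophage markers, all 8 detected, summed to 664, 495, 619 and 630 CPM, with Lyz2 at 191 ± 34.6 and Csf1r at 119 ± 20.3 CPM. The highest library had 2.58 times the lowest for the adipocyte genes, against 1.39 times for endothelial and 1.34 times for macrophage markers, and the part of either cell type in the level of Fabp4 was not tested. Adipocyte progenitor markers, all 6 detected, summed to 320, 252, 300 and 268 CPM, with Pdgfra at 97.8 ± 12.9 and Cd34 at 72.9 ± 7.29 CPM, and followed the same order of libraries with 1.27 times between highest and lowest. Myelinating Schwann cell markers, all 6 detected, also had replicates 1 and 3 above replicates 2 and 4, against 32.8% of all detected genes. They summed to 13051 to 20063 CPM. Fibroblast markers, led by Col1a1 and Col1a2, summed to 10161 to 17962 CPM and were highest in replicate 1. Neuron markers, led by Nefl and Tubb3, summed to 12487 to 14591 CPM, with their lowest sum in replicate 1. Satellite glia markers, led by Apoe and Glul, summed to 6795 to 7900 CPM, and erythroid markers, led by Hba-a1 and Hbb-bs, to 584 to 759 CPM. The values of Hba-a1 and Hbb-bs are uncertain, since 7.05% and 6.07% of their 30-nt words were unique. Fewer than 50% were also unique in Nefl (38.8%), Glul (45.5%) and Itgam (3.975%), which counts in the macrophage sum.

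**Figure D4:**
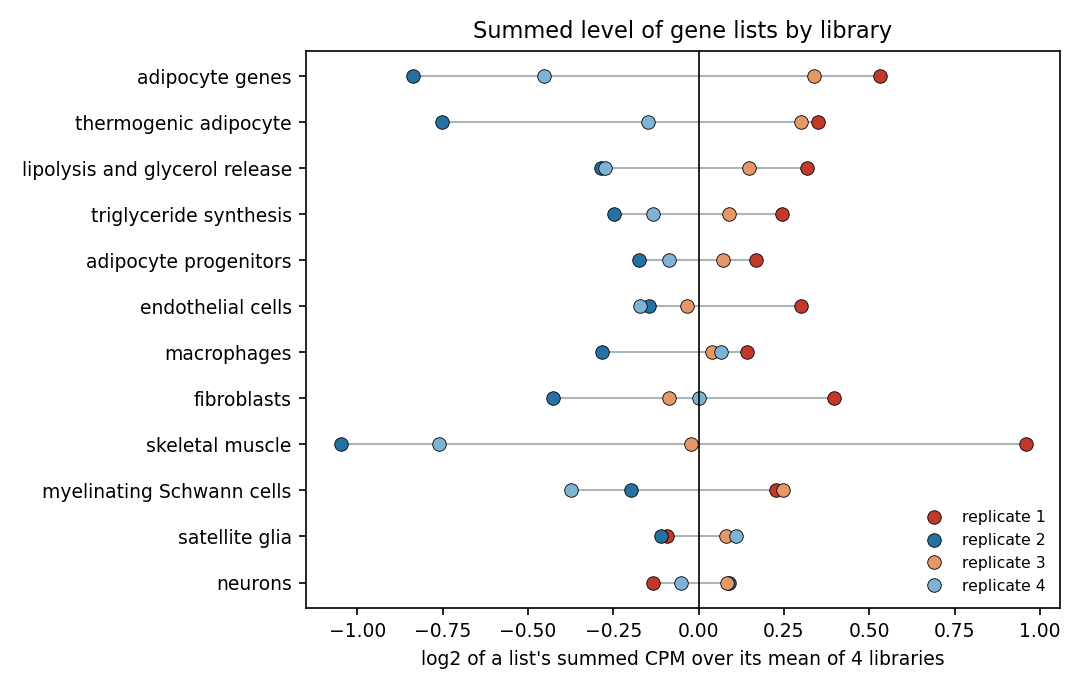
Summed CPM of the adipocyte genes and of 11 other gene lists in each library, as log2 of the library's sum over the mean of the 4 sums, with a point per library. Adipocyte and skeletal muscle genes spread widest, with 2.58 and 4.02 times between the highest and lowest library, against 1.17 times for neurons and 1.16 times for satellite glia.

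Among 9893 genes that averaged 10 CPM or more, those whose profile over the 4 libraries was most like the mean profile of Adipoq, Plin1 and Cidec were listed by the root mean square difference of centred log2(CPM + 1) values. A flat profile lay at a difference of 0.50. The nearest was Rtn2, a reticulon of muscle and nerve, with 38.4, 19.0, 31.6 and 18.2 CPM and a difference of 0.091. Hspb6, a small heat shock protein of muscle, followed at 0.097, Klhl41, a sarcomere protein, at 0.099 and Actn2, a muscle actinin, at 0.101. Agpat2, the acyltransferase of triglyceride synthesis, with 15.9, 6.70, 11.9 and 6.52 CPM, and Cdo1, a cysteine dioxygenase, both lay at 0.11. Adssl1, the muscle adenylosuccinate synthase, at 0.114 and Cox7a1 at 0.119 completed the 8 nearest. Of the other adipocyte genes, Lpl was in place 33 of the ranking, Car3 in place 34, Plin4 in place 107, Cfd in place 147 and Fabp4 in place 261, and Pparg and Lep were below 10 CPM and not ranked. With 4 points a profile, many genes lie close by, and the measure describes these libraries only.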

How the data were processed

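Ribosome footprints of dorsal root ganglia were measured in 4 libraries of 1 group. Per the labels' protocols, spin columns gave the ribosome-bound fraction, rRNA was removed and size-selected footprints were made into libraries with a small-RNA kit. Bowtie2 2.2.9, TopHat2 2.1.1, Cufflinks 2.2.1 and FastQC 0.11.5 appear in the submitters' processing notes, as do the builds mm10 and GRCm38.p4, with no role stated. How reads were counted, where reads with several matches went and which annotation was used are not given in the sources used here.

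Although the table the authors deposited is named as TPM, its columns sum to 1000000, and in each library 96.5% to 96.8% of the nonzero entries were multiples (within 0.05) of 1 step that did not depend on gene length. The deposited values were therefore used as CPM, reads scaled to that total, with no length correction, and the planned tests were run on log2(CPM + 1). The step gave the depths, and 3 reads, the floor of a gene with no read, were 0.523, 0.324, 0.205 and 0.288 CPM in replicates 1 to 4. These floors, and all intervals, cover counting error alone. Libraries differed pairwise by a median chi-square of 1.545 to 2.224 for a gene, none were identical, and all 4 were kept as replicates. The table held 0 columns of other samples.

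Identifiers were matched to GENCODE M21 (48052 matched, 379 not, 22243 with a coding length, which is that of the longest coding sequence without its stop codon). Variance between libraries was tested with limma 3.58.1 in R 4.3.3 (trended, robust prior, F test) and levels with limma's moderated test against the median gene, both on genes averaging 1 CPM or more and with Benjamini-Hochberg adjustment over all of them at a threshold of 0.05. Scripts ran in Python 3.11.15 and were tested on simulated data. The 10 genes, the 20 other lists and the tests were chosen with earlier results of these data known. Named genes were the 10, both genes of each pair, of each pathway list the undetected genes, the 3 highest and those past the variance test, of each cell list the 2 highest, and the 8 nearest profiles. A few genes that meet this rule are not reported here, but their values count in every list sum and adjustment. Promoters were from RefSeq. The alternatives tried were another pseudocount, other scalings, other filters on low values, a prior that was not robust, length correction and leaving out each library.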

Additional observations from a re-analysis of the deposited data

How the results depend on the processing

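The 3 adipocyte genes called variable, Cfd, Car3 and Fabp4, were called alike with a pseudocount of 0.1, after removal of the 20 highest genes and all mitochondrial ones from the scaling, and after quantile normalisation. With no filter on low values 8 of the 10 and 757 genes in all were called. With a mean of at least 5 CPM, 5 of the 9 that met this filter and 243 genes in all were. With a prior that was not robust, 0 of the 10 and 12 genes in all were, and 9 of the 10 had an unadjusted p under 0.05 in limma's test. The share of all genes at that unadjusted p was not computed with that prior. That prior also left 0 of the 9 muscle calls and 0 of the 4 pathway calls. Fasn was called in none of the 3 settings in which the adipocyte calls were alike. The cause was not tested. Leaving out each library in turn gave 0 to 4 of the 10 and 106 to 205 genes in all. With a mean of at least 5 CPM, 1 gene lay below the median gene, as Lep no longer met the filter. Per kilobase of coding length, Cidec stood at 0.65 against the median gene, where it stood at -0.08 in CPM, and the skeletal muscle list moved to 2.1 log2 units above the median gene, since CPM grows with length. Depth limits Lep most, with 5 to 18 reads in a library. A planned test on read counts was not run, because whole reads could not be recovered for all values. No paired analysis was possible because the libraries form 1 group.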
